A study of Homo sapiens with 28 samples.

Results

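LY6D, AQP3, CLIC3, CSTA and SFN, genes known from squamous epithelium, were followed in the lung cancer lines A549 and H1299 after azacitidine or decitabine. They were selected on 2 measured properties, a silent or low signal before treatment and a difference between the drugs. Both properties are therefore described here without a test. The selection had no numeric threshold, so no genes just inside or outside it can be named. The 5 genes stood among 11963 genes that the array names singly, and 9 of its 22277 probe sets measured them. Probe sets brighter than their array's median on 2 or more arrays were used. By that filter 8 of the 9 probe sets passed, and each gene kept at least 1. LY6D passed only through 5 arrays of A549 cells given decitabine. In the fits, 8024 genes were tested, each by its brightest kept probe set.

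Exposure lasted 48 h in both lines and the drug was renewed every 24 h. The groups of each line were azacitidine at 0.3, 1 and 3 µM, decitabine at 0.3, 1 and 3 µM, and the dimethyl sulfoxide vehicle. Each of the 14 groups held 2 arrays, 28 in all, and this number limits the precision of every value. The labels do not say that replicates were separate cultures, so each p measures the spread between these arrays, which may be technical. A549 is a lung adenocarcinoma line and H1299 a large cell carcinoma line known to lack p53. Azacitidine and decitabine are analogs of cytidine that, once built into DNA, bind its methyltransferases irreversibly. Azacitidine, a ribonucleoside, also enters RNA, whereas decitabine is its deoxyribonucleoside. The study asked how the effects of the 2 drugs on expression compare over a range of doses.

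Stratified squamous epithelium renews itself from basal cells that leave the cell cycle, change their keratins and build desmosomes and a cornified envelope as they move outward. LY6D is a surface protein held in the membrane by a glycolipid anchor and marks keratinocytes. AQP3 is the channel through which basal keratinocytes take up water and glycerol. CLIC3 belongs to the intracellular chloride channel family and acts in the recycling of surface receptors. CSTA, cystatin A, inhibits cysteine cathepsins and is built into the cornified envelope. SFN, stratifin, is an adaptor protein of epithelial cells, a transcriptional target of p53, and a gene often found methylated in carcinomas. Human DNA is methylated mainly at CG dinucleotides.

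The promoter windows of AQP3, CLIC3 and SFN are shown because their CG dinucleotides are sites at which DNA can be methylated. The RefSeq promoter table (GRCh38.p14) was used for 3 of the 5 genes. Each window runs from 250 bases before to 50 bases after the annotated start, 5′ to 3′ on the strand of the gene, with every CG in capitals.
AQP3: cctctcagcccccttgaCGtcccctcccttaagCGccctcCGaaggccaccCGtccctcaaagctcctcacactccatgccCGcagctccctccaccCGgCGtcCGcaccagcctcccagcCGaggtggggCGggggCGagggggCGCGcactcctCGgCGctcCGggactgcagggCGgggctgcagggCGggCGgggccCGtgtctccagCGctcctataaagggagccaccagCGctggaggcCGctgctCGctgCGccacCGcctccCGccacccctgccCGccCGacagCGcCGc
CLIC3: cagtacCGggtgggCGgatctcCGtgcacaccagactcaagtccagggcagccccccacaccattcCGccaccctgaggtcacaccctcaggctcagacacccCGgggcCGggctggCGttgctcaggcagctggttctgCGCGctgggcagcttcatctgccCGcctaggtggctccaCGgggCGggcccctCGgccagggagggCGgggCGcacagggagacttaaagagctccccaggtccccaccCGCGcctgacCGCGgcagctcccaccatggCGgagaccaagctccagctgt
SFN: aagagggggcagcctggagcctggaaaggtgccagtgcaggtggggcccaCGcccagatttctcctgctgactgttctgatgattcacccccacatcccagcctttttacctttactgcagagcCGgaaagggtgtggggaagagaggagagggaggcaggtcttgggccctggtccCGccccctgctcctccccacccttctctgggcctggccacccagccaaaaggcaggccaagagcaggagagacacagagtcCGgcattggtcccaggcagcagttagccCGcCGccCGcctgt
The AQP3 window lies at chr9:33447544-33447843 on the minus strand and holds 31 CG dinucleotides, with a G and C content of 75.3%. The CLIC3 window lies at chr9:136996519-136996818 on the minus strand and holds 20, with a G and C content of 70.3%. The SFN window lies at chr1:26862899-26863198 on the plus strand and holds 7, with a G and C content of 63.7%. Over the 27305 promoter windows of the table the median was 14, and 95.8% of windows held at least 1. Fewer CG dinucleotides than in AQP3 were found in 79.6% of windows, fewer than in CLIC3 in 58.8%, and fewer than in SFN in 37.5%. The motif CG reads the same on both strands, and these counts describe the letters only, since methylation was not measured.

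The arrays were alike in scale, with medians between 92.7 and 123 and 25th percentiles between 18.0 and 28.3. The 3 arrays in doubt are the first replicates of A549 with 3 µM azacitidine, with 3 µM decitabine (marked as repeated in its label) and with vehicle. The azacitidine and vehicle ones had the highest 25th percentiles of the 28 arrays. They are kept below, and values without them stand beside the results they change. Epithelial and mesenchymal markers were both present in each line. KRT8, KRT18, VIM, CDH2 and ZEB1 exceeded the array median on every array of both lines. KRT7 averaged 9942 in A549 vehicle cells and 5.97 in H1299 vehicle cells. CDH1 averaged 195 in A549 vehicle cells and 8.47 in H1299 vehicle cells. The 4 measured leukocyte markers never exceeded the array median.

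The name squamous holds for what the 5 genes are known for, not for the state of these cells. The keratins KRT5 and KRT14 of basal squamous cells reached at most 73.3 and 28.5 on any of the 28 arrays, below every array median. Involucrin (IVL), an envelope precursor, reached at most 55.8, and the desmosomal cadherin DSG3 reached at most 73.5. Of a list of 72 other squamous genes, 61 had a probe set for a single gene, 20 passed the filter, and 39 were below the array median on every array. TP63, which encodes the transcription factor of the squamous lineage, was not analysed here. Not every gene was silent or low before treatment: in A549 vehicle cells SFN was brighter than 97.3 to 97.4% of probe sets and AQP3 brighter than 65.0%. The 5 genes are therefore called by their symbols below.

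LY6D, the keratinocyte surface protein, was near the bottom of the array in every group except A549 with decitabine. With azacitidine at 0.3, 1 and 3 µM, the A549 arrays gave signals of 4.74 and 4.14, then 2.52 and 2.12, then 5.17 and 3.75. With decitabine at the same doses they gave 92.3 and 133, then 333 and 323, then 744 and 721. The A549 vehicle arrays gave 5.87 and 1.88. All 6 decitabine arrays thus lay above all azacitidine and vehicle arrays, and the 3 decitabine doses did not overlap each other. In the azacitidine and vehicle arrays the signal was below the 25th percentile of its array, where levels have no reliable order. In H1299 all 14 arrays were equally dim, between 1.56 and 6.62, the highest pair being 5.68 and 6.62 with 0.3 µM decitabine. A fold against such signals has no firm base, so differences are given as log2(signal + 32), which draws dim values toward 0.

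AQP3, the water and glycerol channel, went opposite ways with the 2 drugs in A549. Azacitidine at 0.3, 1 and 3 µM gave 248 and 343, then 86.1 and 62.1, then 65.3 and 54.0. Decitabine gave 941 and 889, then 1416 and 1436, then 1681 and 1622. The vehicle arrays gave 303 and 284. Azacitidine at 0.3 µM overlapped vehicle, both higher azacitidine doses lay below vehicle and overlapped each other, and every decitabine dose lay above vehicle and apart from the next. In bulk RNA, more cells expressing a gene and more RNA per cell cannot be told apart. The mean with 3 µM azacitidine was 0.203 times the vehicle mean, and the mean with 3 µM decitabine 5.62 times. In H1299 azacitidine gave 42.0 and 40.6, then 27.4 and 30.8, then 50.5 and 53.5. Decitabine gave 67.1 and 65.0, then 80.2 and 87.2, then 121 and 103 in this line. The H1299 vehicle arrays gave 25.8 and 17.7. On this probe set, the brightest of 3, all H1299 groups of AQP3 lay apart from their neighbours in level. Vehicle was lowest and 3 µM decitabine highest, and only that highest group exceeded the array median. The other 2 probe sets did not show this rise over vehicle, as given below.

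CLIC3, of the intracellular chloride channel family, followed the same order as AQP3 in A549. Azacitidine at 0.3, 1 and 3 µM gave 108 and 99.4, then 53.5 and 43.5, then 6.75 and 13.2. Decitabine gave 388 and 375, then 441 and 480, then 445 and 483. The vehicle arrays gave 88.7 and 86.5. The 0.3 µM azacitidine arrays lay above vehicle, each higher azacitidine dose lay apart below, and at 3 µM both arrays were under their 25th percentiles. The decitabine arrays at 1 and 3 µM overlapped each other and lay above those at 0.3 µM. In H1299 CLIC3 stayed between 0.57 and 25.1 on all 14 arrays, and at 0.3 and 1 µM decitabine its replicates differed widely (11.9 and 0.92, then 0.87 and 25.1).

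SFN, the stratifin adaptor, was bright in A549 before treatment and brighter after both drugs. Azacitidine at 0.3, 1 and 3 µM gave 5648 and 5773, then 6645 and 7487, then 8668 and 9461. Decitabine gave 7741 and 8109, then 8749 and 10067, then 11816 and 9732. The A549 vehicle arrays gave 5242 and 5515. On this probe set, the brightest for SFN, every treated group lay above vehicle. The means were 1.06 to 1.69 times vehicle for azacitidine and 1.47 to 2.0 times for decitabine. On the dimmest SFN probe set 0.3 µM azacitidine read 317 and 293, below its vehicle arrays (327 and 428), and 1 µM overlapped them (349 and 454). In H1299 azacitidine gave 940 and 1021, then 752 and 762, then 634 and 450. Decitabine gave 2070 and 1887, then 2183 and 2196, then 2083 and 2056 there. The H1299 vehicle arrays gave 658 and 550. With azacitidine SFN was thus highest at 0.3 µM and overlapped vehicle at 3 µM, whereas every decitabine dose stood at 3.27 to 3.62 times vehicle.

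CSTA, the cathepsin inhibitor, was the one member with more signal under azacitidine than under decitabine. In A549 azacitidine at 0.3, 1 and 3 µM gave 175 and 170, then 320 and 342, then 285 and 299. Decitabine gave 104 and 98.6, then 119 and 154, then 158 and 181. The A549 vehicle arrays gave 81.2 and 100.0. The azacitidine arrays were above the decitabine arrays at each matched dose, and the decitabine arrays at 0.3 µM overlapped vehicle. In H1299 azacitidine gave 48.5 and 34.5, then 411 and 471, then 541 and 459. Decitabine gave 17.9 and 26.3, then 17.3 and 24.7, then 17.2 and 23.0 in that line. The H1299 vehicle arrays gave 15.5 and 9.27. The azacitidine arrays at 1 and 3 µM overlapped each other and lay far above all other H1299 arrays, while the 3 decitabine doses overlapped one another.

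**Figure D1:**
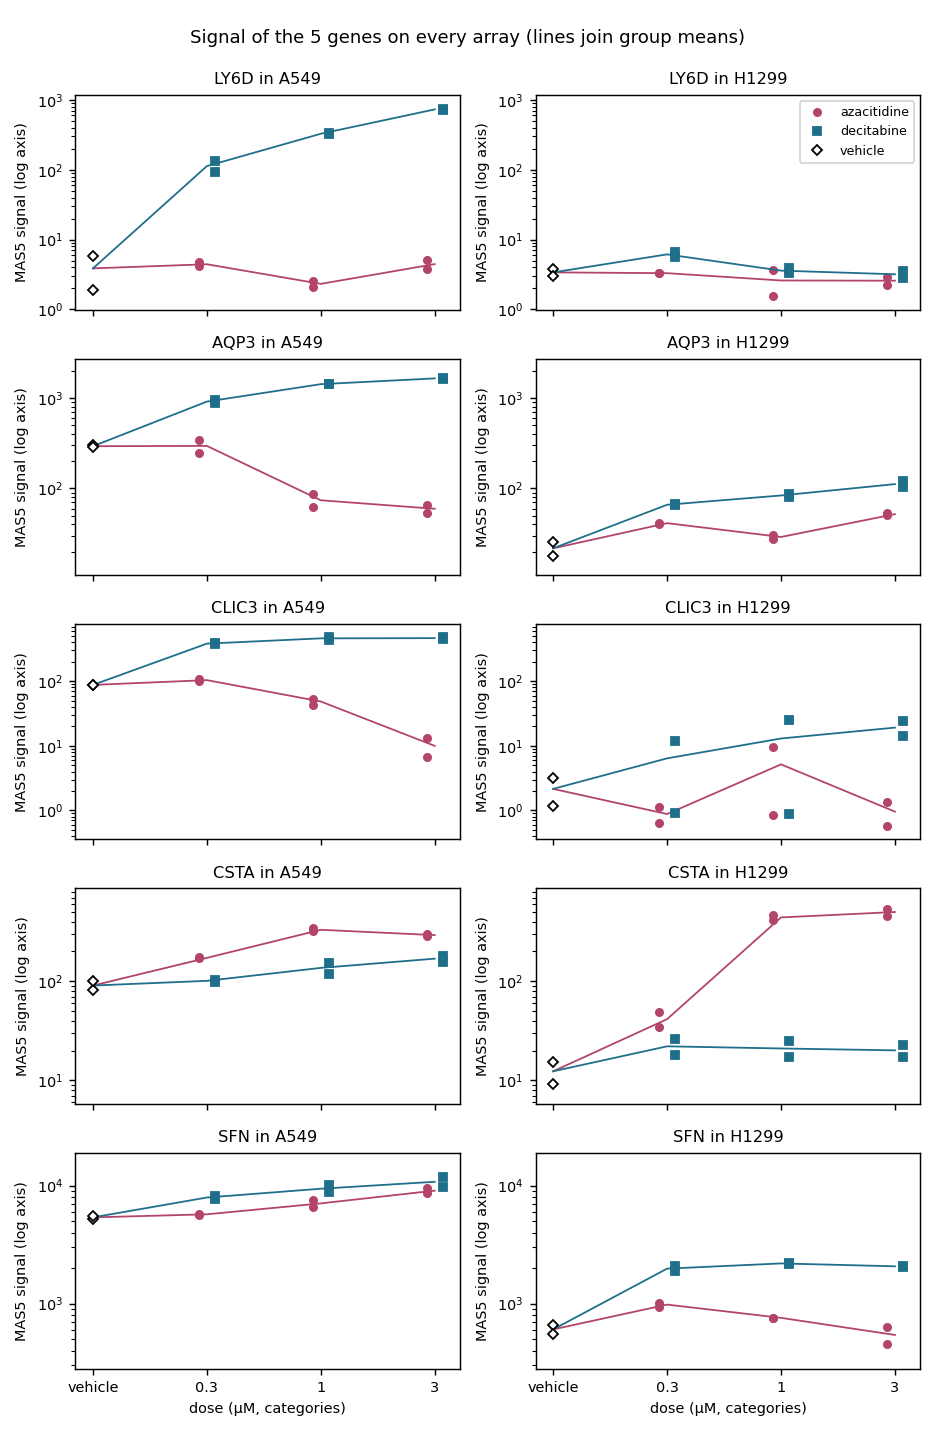
Signal of each gene (log axis) on every array, by dose category, with azacitidine as circles, decitabine as squares, vehicle as diamonds and lines joining group means. LY6D reaches 744 in A549 with decitabine and is no higher than 6.62 on any H1299 array, and CSTA reaches 541 in H1299 with azacitidine.

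Other epithelial genes and genes of the p53 pathway, which is known to activate SFN, varied over the same arrays, and their part in the members' values was not tested. The summed signal of the 5 epithelial markers in A549 ran from 20493 to 31407 with azacitidine, from 30967 to 37224 with decitabine and from 28289 to 31593 with vehicle. In H1299 it ran from 3698 to 6090 with azacitidine, from 8244 to 9149 with decitabine and from 5020 to 5236 with vehicle. EPCAM, an epithelial adhesion molecule in that list, averaged 204, 149 and 168 with azacitidine at 0.3, 1 and 3 µM, 558, 978 and 1236 with decitabine and 225 with vehicle in A549. It was thus brighter with decitabine and dimmer with azacitidine than with vehicle, as AQP3 was at the 2 higher doses. Not all epithelial markers did so. KRT7 in A549 averaged 11751 with 1 µM azacitidine, 9629 with 0.3 µM decitabine and 9942 with vehicle. KRT18 averaged 13172 with 0.3 µM azacitidine, above its vehicle mean of 12372.

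The 4 p53 pathway genes measured had mean sums of 5105, 5010 and 4776 with azacitidine at 0.3, 1 and 3 µM, 6610, 9633 and 12038 with decitabine and 5116 with vehicle in A549. In H1299 the mean sums were 1199, 1791 and 1834 with azacitidine at 0.3, 1 and 3 µM, 1330, 1359 and 1413 with decitabine and 891 with vehicle. The decitabine sums exceeded the azacitidine sums at each dose in A549, whereas in H1299 azacitidine had the higher sum at 1 and 3 µM. In A549 each gene was above vehicle with 3 µM decitabine. With 3 µM azacitidine TP53I3 averaged 2513 against 3369 with vehicle there, and GDF15 947 against 417. In H1299 with that dose CDKN1A averaged 1114 against 437, and GDF15 307 against 21.8. MDM2 (123 against 119) and TP53I3 (291 against 314) were near vehicle there. The sum of 4 mesenchymal markers in A549 ran from 12057 to 15052 with azacitidine, from 14264 to 16923 with decitabine and from 14949 to 16304 with vehicle. In H1299 it ran from 8460 to 15644 with azacitidine, from 12699 to 15134 with decitabine and from 13223 to 15392 with vehicle, with the 3 µM azacitidine arrays lowest. VIM made up most of this sum, with 12419 of 14307 in H1299 vehicle cells. FN1 and CDH2 were also lower with 3 µM azacitidine than with vehicle. ZEB1 went the other way, averaging 1237 against 1103 in H1299 and 1127 against 819.5 in A549. The sums of 4 leukocyte markers ran from 28.9 to 158 over the 28 arrays.

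At matched doses the members therefore fell into 3 kinds. LY6D, AQP3 and CLIC3 were lower with azacitidine than with decitabine in A549, and the difference was larger at each higher dose. For LY6D the differences of azacitidine minus decitabine at 0.3, 1 and 3 µM were -1.98, -3.39 and -4.39 on the log2(signal + 32) scale (SE 0.17 each, n = 2 per group). For AQP3 they were -1.54, -3.79 and -4.20 (SE 0.14), and for CLIC3 -1.61, -2.61 and -3.57 (SE 0.21). In H1299 the same differences were -0.11, -0.04 and -0.03 for LY6D, -0.42, -0.92 and -0.77 for AQP3, and -0.21, -0.23 and -0.63 for CLIC3. The CLIC3 difference in H1299 at 1 µM rests on 1 array, since it was 0.17 without the second decitabine replicate.

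SFN differed between the drugs mainly in H1299, where azacitidine minus decitabine was -0.99, -1.49 and -1.89 at the 3 doses (SE 0.12). In A549 its differences were -0.47, -0.41 and -0.24, and the 95% interval of the last ran from -0.49 to 0.00. Without the 3 arrays in doubt that difference was -0.04. CSTA was higher with azacitidine at every dose, by 0.62, 1.11 and 0.69 in A549 and by 0.44, 3.16 and 3.35 in H1299 (SE 0.16). These contrasts chose the members, so they are given as a description. With a pseudocount of 1 in place of 32 the LY6D difference in A549 at 3 µM was -7.08, and with the larger pseudocount tried it was -2.70, so the size for this dim gene depends on the pseudocount.

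**Figure D2:**
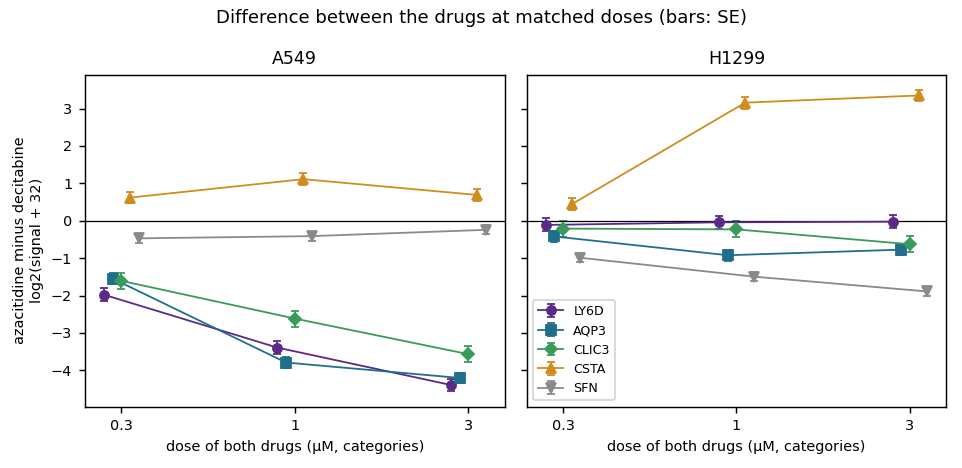
Azacitidine minus decitabine, log2(signal + 32), for each gene at each matched dose (categories), in A549 on the left and H1299 on the right, with bars for the SE. LY6D, AQP3 and CLIC3 lie below 0 in A549, down to -4.39, SFN lies lower in H1299 than in A549, and CSTA lies above 0 at all doses in both lines.

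The step between doses of 1 drug was not part of the selection, and 3 µM minus 0.3 µM was tested over all 8024 genes with limma and Benjamini-Hochberg adjustment at 0.05. The same arrays had chosen the members, so the steps are not from independent samples. In A549 with azacitidine AQP3, CLIC3, CSTA and SFN passed, against a background of 34.4% of all genes tested, so a call there is common. AQP3 fell by 1.83 on its brightest probe set (95% interval -2.12 to -1.53, limma adjusted p = 8.49e-09). The means at 0.3 and 3 µM were 90.8 and 49.2 on its next brightest probe set, and 46.1 and 42.9 on its dimmest. CLIC3 fell by 1.70 (-2.14 to -1.25, limma adjusted p = 4.29e-06). CSTA rose by 0.67 (0.34 to 0.99, adjusted p = 0.00243) and SFN rose by 0.66 (0.42 to 0.91, adjusted p = 2.09e-04). LY6D had a step of 0.00 (-0.36 to 0.36), given without a test because it was at the bottom of the array with this drug. Both genes that fell with dose were at or above vehicle at 0.3 µM. AQP3 made most of its step between 0.3 and 1 µM, with -1.62 there and -0.20 between 1 and 3 µM (SE 0.14 each). CLIC3 had -0.76 and then -0.94 over the same intervals (SE 0.21 each).

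In A549 with decitabine LY6D was 2.41 higher at 3 µM than at 0.3 µM (2.05 to 2.77), in steps of 1.33 and 1.09 (SE 0.17 each). LY6D passed the filter only through these decitabine arrays, more of them at 3 µM than at 0.3 µM, so its step is a description with no test. Of the other 4 genes 3 passed, against a background of 8.87%. AQP3 rose by 0.83 on its brightest probe set (0.53 to 1.13, limma adjusted p = 7.83e-04). Its next brightest read 156 and 129 at 0.3 µM and 138 and 211 at 3 µM, which overlap. Its dimmest averaged 77.0 and 75.9 at these doses. CSTA had 0.59 (0.27 to 0.92, adjusted p = 0.0187) and SFN 0.44 (0.19 to 0.68, adjusted p = 0.0228), but both calls were lost without the 3 arrays in doubt, with adjusted p of 0.0583 and 0.276. They were lost under median centring as well, at 0.0506 and 0.0756. Leaving out either of the 0.3 µM decitabine arrays or the first 3 µM decitabine array also ended both, and the CSTA call was lost without the second 3 µM array too. CLIC3 had a step of 0.26 (-0.18 to 0.71, adjusted p = 0.52), its signal being 388 and 375 at 0.3 µM.

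In H1299 with azacitidine CSTA and SFN passed, against a background of 55.5%, a share at which most genes are called. CSTA rose by 2.86 (2.53 to 3.18, limma adjusted p = 3.5e-12), of which 2.69 lay between 0.3 and 1 µM and 0.17 between 1 and 3 µM (SE 0.16 each). SFN fell by 0.84 (-1.08 to -0.59, adjusted p = 4.2e-06). AQP3 had a step of 0.20 (adjusted p = 0.256). LY6D and CLIC3 had -0.03 and 0.00, given without a test because both were at the bottom of the array in this line. Over all genes the median step in this comparison was 0.12, and it was 0.00 after median centring. With decitabine in H1299 only AQP3 passed, by 0.55 (0.25 to 0.85, adjusted p = 0.0182), against a background of 9.93%. That call was lost without the first or the second 0.3 µM decitabine array (adjusted p = 0.0863 and 0.0754) and without the first 3 µM array (0.162). It was read from the brightest AQP3 probe set. On the next brightest the means fell from 77.9 at 0.3 µM to 57.1 at 3 µM. On the dimmest they rose from 28.3 to 37.6, with overlapping arrays. CSTA and SFN had steps of -0.05 and 0.07 there (adjusted p = 0.888 and 0.80). LY6D and CLIC3 had -0.12 and 0.42, again without a test.

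**Figure D3:**
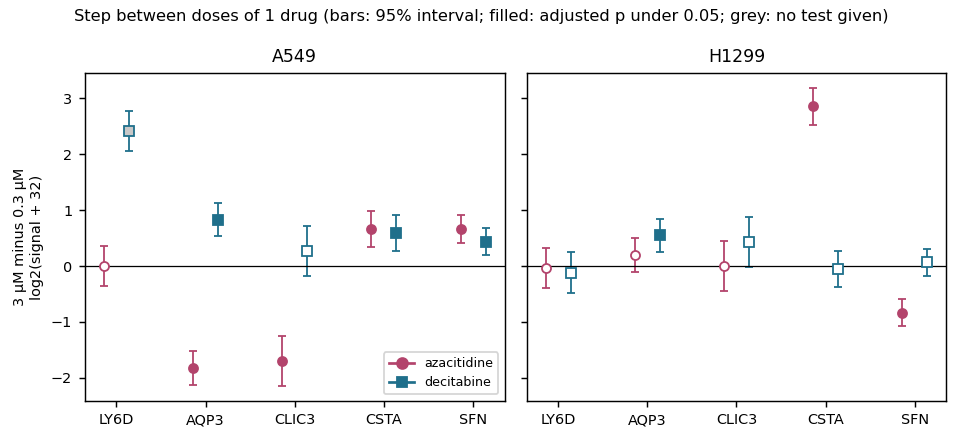
Step from 0.3 to 3 µM of 1 drug, as log2(signal + 32) at 3 µM minus 0.3 µM, with 95% intervals. Filled points have adjusted p under 0.05, and the grey point is the LY6D step with decitabine in A549, given without a test. The open points of LY6D in both lines, and of CLIC3 in H1299, are also given without a test. LY6D steps up by 2.41 with decitabine in A549, AQP3 and CLIC3 step down with azacitidine in A549, and CSTA steps up by 2.86 with azacitidine in H1299.

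The lines began from different levels. In vehicle cells, A549 minus H1299 was 3.09 for SFN, 2.60 for AQP3, 1.81 for CLIC3, 1.47 for CSTA and 0.02 for LY6D, given as a description because the level before treatment chose the members. The steps were next compared between lines, as the step in A549 minus the step in H1299. LY6D and CLIC3 were at the bottom of the array in H1299, where a step can hardly be read, so their differences are given without a test. With azacitidine the other 3 genes passed, against a background of 29.4%. The difference was -2.02 for AQP3 (SE 0.20, limma adjusted p = 2.26e-07) and -2.19 for CSTA (SE 0.22, adjusted p = 2.58e-07). For SFN it was 1.5 (SE 0.17, adjusted p = 9.98e-07): SFN rose with dose in A549 and fell with dose in H1299. CLIC3 had -1.70 (SE 0.30), with H1299 signals all below the 25th percentile of their arrays. LY6D had 0.03 (SE 0.24), both lines being at the bottom of the array with this drug.

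With decitabine the difference was 2.53 for LY6D (2.02 to 3.04) and -0.16 for CLIC3 (-0.79 to 0.47), again without a test. None of the other 3 genes passed (limma, background 3.79%), although the 95% intervals of 2 of them lay above 0. AQP3 had 0.28 (-0.14 to 0.70, adjusted p = 0.507), which passed with the larger pseudocount (adjusted p = 0.0398). CSTA had 0.65 (0.19 to 1.11) and SFN 0.37 (0.02 to 0.72), with adjusted p of 0.109 and 0.244.

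AQP3 and SFN each had 3 probe sets, which bear on how far a single signal can be trusted. For SFN all 3 gave lower signals with azacitidine than with decitabine over the 3 doses, by -0.37, -0.58 and -0.46 in A549 and by -1.46, -2.08 and -1.61 in H1299. The dimmest of them read 41.6 and 72.5, then 9.98 and 16.4, then 9.10 and 13.6 in H1299 with azacitidine at 0.3, 1 and 3 µM. With decitabine it read 178 and 139, then 143 and 132, then 121 and 121, and with vehicle 13.1 and 7.66. On this probe set SFN was thus low in H1299 before treatment, and was at the vehicle level again with 1 and 3 µM azacitidine. In A549 at 3 µM the same probe set averaged 706 ± 56.6 with azacitidine and 705 ± 17.7 with decitabine (SD, n = 2), a difference of 0.00.

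For AQP3 the reported probe set gave -3.18 over the 3 doses in A549 and -0.70 in H1299. The other probe sets were dim and gave -1.10 (SE 0.26) for the brighter of them and -0.69 (SE 0.16) for the dimmer in A549. In H1299 they gave -0.13 (SE 0.26) and -0.21 (SE 0.16). The H1299 rise over vehicle with 3 µM decitabine was seen on neither. The means were 57.1 with the drug and 82.1 with vehicle on the brighter, and 37.6 and 38.6 on the dimmer. On the brighter of these the A549 decitabine arrays read 156 and 129, then 203 and 212, then 138 and 211, against 143 and 25.9 with vehicle, and the first vehicle array overlapped them. The fall below vehicle with 3 µM azacitidine was seen on neither of them. The brighter read 31.5 and 66.9 with the drug, between its vehicle arrays. The dimmer read 40.5 and 45.4 with the drug and 8.43 and 51.9 with vehicle.

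**Figure D4:**
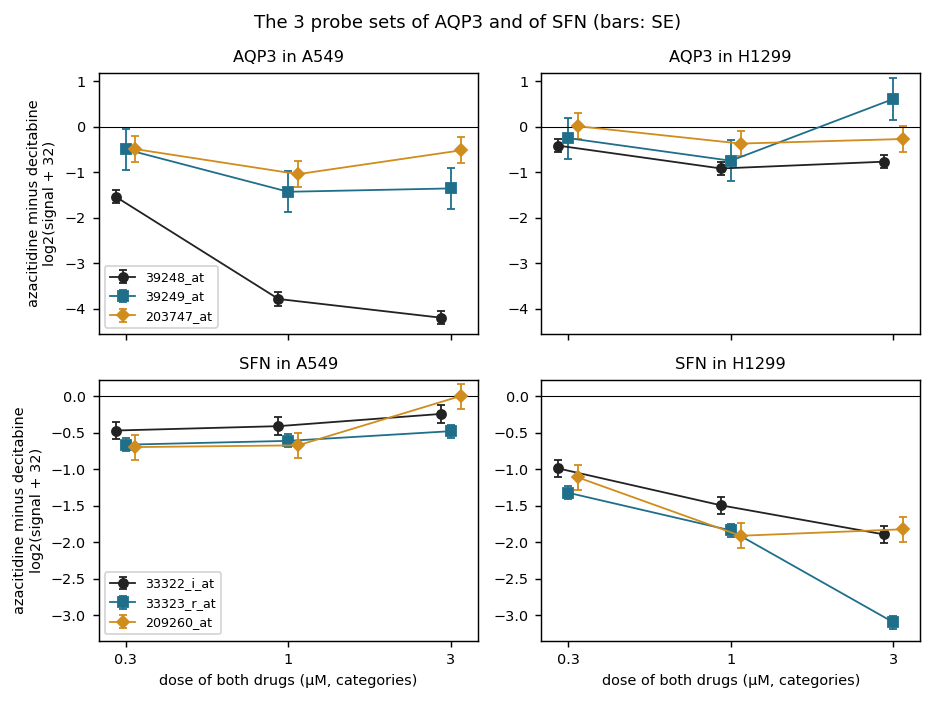
Azacitidine minus decitabine, log2(signal + 32), by matched dose for the 3 probe sets of AQP3 (top) and of SFN (bottom), with bars for the SE. For AQP3 in A549 the bright probe set goes down to -4.20, while the dim ones stay between -1.43 and -0.48; for SFN in H1299 all 3 lie below 0.

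Other squamous genes were read from the list of 72, none of them a member, by the same fits. Over the 3 doses in A549, 13 of the 20 tested were lower with azacitidine than with decitabine (background 26.5%) and 1 was higher (background 27.9%). The median of the 20 was -0.65, against 0.02 over all genes tested. In H1299 11 were lower (background 23.1%) and 2 higher (background 30.9%), with a median of -0.31 against 0.05. The genes lower in both lines numbered 9, which is 69.2% of the 13 in A549 and 81.8% of the 11 in H1299: DSC3, DSG2, DSP, EMP1, FGFBP1, ITGA6, JUP, PPL and S100A2. Over all genes tested, 45.8% of the 2130 lower in A549 and 52.7% of the 1850 lower in H1299 were lower in both. Some genes counted as lower were dim. S100A14 exceeded the array median on 2 of the 28 arrays, DSC3 on 4, ITGB4 on 6, EVPL on 7, PPL on 8 and KRT4 on 9. Calls of such genes, between the drugs or against vehicle, may depend on the arrays through which they passed the filter. The list was written with earlier results of these data known, and no test of the list as a set was run. Its counts, and the adjusted p values of its genes given below, are therefore a description and not independent support.

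S100A2, a calcium-binding protein of basal epithelial cells, differed most in both lines, by -2.38 in A549 (SE 0.06, limma adjusted p = 8.02e-18) and by -1.0 in H1299 (SE 0.06, adjusted p = 8.76e-12). Its A549 arrays read 216 and 194 with 3 µM azacitidine, 1781 and 1977 with 3 µM decitabine, and 346 and 341 with vehicle. JUP, plakoglobin of desmosomes and adherens junctions, followed in A549 with -1.94 (adjusted p = 4.35e-12) and ITGB4, the hemidesmosomal integrin subunit, with -1.49 (adjusted p = 2.08e-09). In H1299 PPL, periplakin of the envelope, had -0.96 (adjusted p = 4.76e-06) and the membrane protein EMP1 -0.83 (adjusted p = 1.56e-08). KRT10, a keratin of differentiating layers, was higher with azacitidine, by 0.15 in A549 (adjusted p = 0.0137) and by 0.35 in H1299 (adjusted p = 3.74e-06). Its A549 call was lost in 2 of 24 alternatives and its H1299 call in 0 of 24. PERP, a desmosomal p53 target, was higher by 0.36 in H1299 (adjusted p = 0.0421), a call lost in 10 of 24 alternatives.

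Against vehicle, with arrays shared by both comparisons, the list split by drug in A549. With 3 µM azacitidine 2 of 20 rose (background 22.1%) and 10 fell (background 16.2%), the median being -0.46 against 0.06 over all genes. JUP fell by 2.31 (limma adjusted p = 6.17e-09), the mucosal keratin KRT4 by 1.81 (adjusted p = 2.74e-05) and FGFBP1, a carrier of fibroblast growth factors, by 1.16 (adjusted p = 3.68e-05). KLF4, a transcription factor of the epidermal barrier, rose by 1.54 (adjusted p = 1.89e-07) and KRT10 by 0.33 (adjusted p = 0.00394). With 3 µM decitabine 10 of 20 rose (background 15%) and 0 fell (background 10.8%, and 0 at an unadjusted p under 0.05), the median being 0.39 against 0.01. S100A2 rose by 2.34 (adjusted p = 9.51e-13), KLF4 by 1.70 (adjusted p = 1.33e-07) and ITGB4 by 1.38 (adjusted p = 6.45e-05). Without the 3 arrays in doubt the count of 10 with decitabine was 6. KLF4 thus rose with both drugs, whereas S100A2 fell by 0.67 with azacitidine (adjusted p = 2.71e-05).

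In H1299 the list was mixed with 3 µM azacitidine, where 3 rose (background 32.3%) and 4 fell (background 21.6%), with a median of -0.14 against 0.08. EMP1 fell by 2.99 (limma adjusted p = 1.6e-13), the integrin subunit ITGA6 by 1.70 (adjusted p = 1.68e-11) and PPL by 1.04 (adjusted p = 8.86e-04). KRT10 rose by 0.77 (adjusted p = 1.74e-07), ITGB4 by 0.57 (adjusted p = 0.0271) and desmoplakin (DSP) by 0.26 (adjusted p = 0.00479); the ITGB4 call was lost under median centring and the DSP call under quantile normalization. With quantile normalization the split was 2 higher and 6 lower. With 3 µM decitabine 6 rose (background 16.3%) and 3 fell (background 14.6%), or 8 and 2 after median centring, the median being 0.26 against -0.01. S100A2 rose by 1.12 (adjusted p = 3.77e-08), DSP by 1.09 (adjusted p = 4.41e-10) and the desmosomal cadherin DSG2 by 0.82 (adjusted p = 1.47e-08). EMP1 fell by 1.32 (adjusted p = 2.06e-07), ITGA6 by 0.40 (adjusted p = 0.00477) and the phospholipid-binding ANXA1 by 0.32 (adjusted p = 0.00775), the last call being lost under median centring. EMP1 and ITGA6 therefore fell with both drugs in H1299 from high vehicle signals of 2403 and 2336, and of 6580 and 5662.

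**Figure D5:**
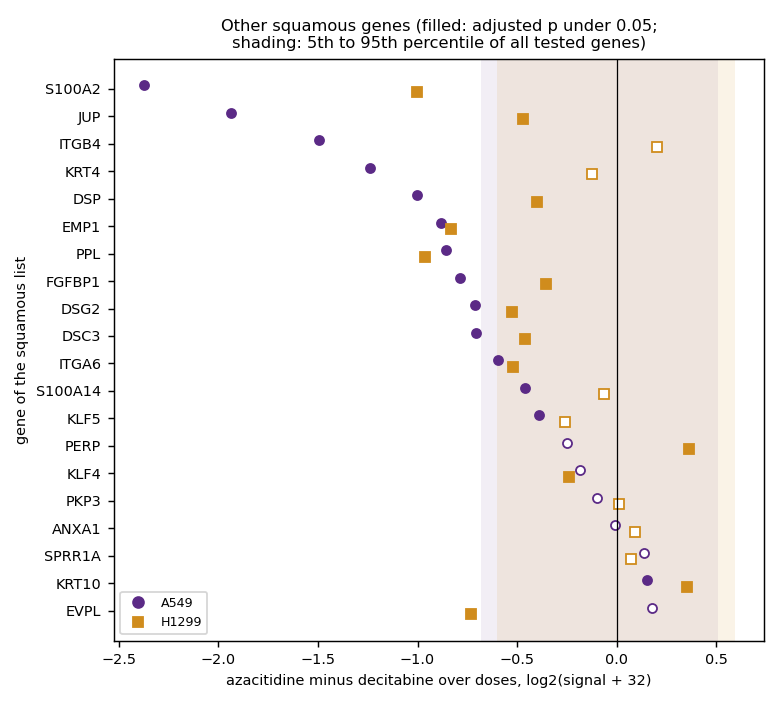
Azacitidine minus decitabine over the 3 doses, log2(signal + 32), for the 20 tested genes of the squamous list in A549 (circles) and H1299 (squares), filled where adjusted p is under 0.05. The shading spans the 5th to 95th percentile of all tested genes. S100A2 lies furthest below 0 in both lines, at -2.38 and -1.0, and KRT10 lies above 0 in both.

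Members of the same protein families gave a separate reading of 15 tested genes among 40 listed, from the Ly6, aquaporin, chloride intracellular channel, cystatin and stratifin families. In A549 7 were lower with azacitidine than with decitabine over the 3 doses (background 26.5%). None was higher (0 by limma, 0 at an unadjusted p under 0.05, background 27.9%), and the median was -0.12. They were CST6 (-0.60, limma adjusted p = 0.00155), CST3 (-0.45, adjusted p = 1.77e-05), LY6E (-0.39, adjusted p = 0.0288), PLAUR (-0.31, adjusted p = 1.21e-04), CSTB (-0.24, adjusted p = 0.0247), CD59 (-0.21, adjusted p = 0.00128) and CLIC1 (-0.20, adjusted p = 0.00147). Median centring left 4 of these, without LY6E, CSTB and CLIC1. CST6 was below the array median on every A549 array and was tested there only because H1299 arrays passed the filter. In H1299 CST6 (-1.56, adjusted p = 1.33e-08), PLAUR (-0.90, adjusted p = 3.86e-11) and CSTB (-0.27, adjusted p = 0.0127) were lower (background 23.1%), and CLIC4 (0.42, adjusted p = 8.39e-05) and YWHAZ (0.11, adjusted p = 0.0323) were higher (background 30.9%), with a median of 0.01. The YWHAZ call was lost under median centring. CST6 exceeded the array median on 8 arrays, all in H1299 and including every decitabine array there, so its H1299 call is not independent of the filter.

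CST6, cystatin E/M, is a secreted relative of CSTA known from epidermis, and in H1299 it ran the other way from CSTA. Its H1299 arrays read 96.5 and 91.8, then 83.3 and 107, then 56.3 and 63.0 with azacitidine. With decitabine they read 231 and 313, then 298 and 324, then 393 and 274, and with vehicle 35.1 and 36.0. All decitabine arrays lay above all azacitidine arrays, and these above vehicle. CSTB, the intracellular cystatin closest in kind to CSTA, was bright in every group and differed by -0.24 and -0.27 only.

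The genes whose pattern over the 14 group means of log2(signal + 32) was most like each member were ranked by Pearson's r among all other tested genes. The group means share lines, drugs and vehicle arrays, so r is a description. For LY6D they were SESN1 (0.95), a sestrin, FBXO2 (0.94) and ANK1 (0.93). For AQP3 they were TRAF4 (0.97), ANKRD2 (0.97) and the mucin MUC1 (0.97), and for CLIC3 DIRAS3 (0.98), E-cadherin CDH1 (0.98) and GAL3ST1 (0.97). MUC1 averaged 24.2 with 3 µM azacitidine, 315 with 3 µM decitabine and 80.4 with vehicle in A549. CDH1 averaged 50.5 with 3 µM azacitidine, 904 with 3 µM decitabine and 195 with vehicle in that line.

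For CSTA the most similar genes were the neutral amino acid transporter SLC1A4 (0.96), the cysteinyl tRNA synthetase CARS1 (0.96) and TOR1AIP1 (0.95). In H1299 SLC1A4 averaged 188, 598 and 873 with azacitidine at 0.3, 1 and 3 µM, 167, 170 and 209 with decitabine, and 178 with vehicle. For SFN they were AKAP11, the gap junction protein GJA1 and CRIP1 (all 0.98), each of them brighter in A549 than in H1299 vehicle cells. CRIP1 in H1299 averaged 46.8, 13.4 and 7.62 with azacitidine, 288, 250 and 199 with decitabine, and 6.13 with vehicle. Among the members, AQP3 and CLIC3 were most alike (r = 0.98), LY6D followed AQP3 (0.88) and CLIC3 (0.86), and CSTA was least like the rest (0.08 to 0.18).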

How the data were processed

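RNA levels on 28 one-colour Affymetrix human arrays were analysed in 14 groups of line, drug and dose. The authors deposited an intensity (MAS5 signal, linear scale) for each of 22277 probe sets, MAS5 being named in the submitters' processing notes. A version and a scaling target are not given in the sources used here. Trimmed means ran from 500.125 to 500.159, which puts the arrays on 1 scale. The platform annotation gave a single gene for 19070 probe sets, several for 1043 and none for 2164, and Entrez identifiers changed 0 symbols.

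Computed here were log2(signal + 32), a filter that retained 13249 probe sets (signal over the array's median on 2 or more arrays), and 8024 genes, each by its brightest retained probe set. Using data.table (version 1.17.8) for input, limma 3.58.1 (R 4.3.3) fitted 1 mean per group with 14 residual degrees of freedom and eBayes with trend. Benjamini-Hochberg adjustment ran over all genes, two-sided, at 0.05. Depth has no meaning for arrays, so the 2 arrays per group limit precision.

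The members and lists were chosen with earlier results of these data known. Tests on members are confined to the step between doses of 1 drug and its difference between lines. Named were the members with every probe set, the 3 genes most like each by Pearson's r, the 3 largest called rises and falls of the squamous list in each of 6 comparisons, and relatives called between the drugs. Alternatives were quantile normalization, median centring, a smaller and a larger pseudocount, 3 other filters, all kept probe sets, each line alone, no trend, a replicate block and leaving out each array. Leaving out 3 arrays in doubt together was chosen after seeing the data. The fit was tested beforehand on simulated data. Promoter windows are from RefSeq.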

Additional observations from a re-analysis of the deposited data

Results flagged for a closer look

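Several steps with dose differed between the lines, tested as the step of 3 µM minus 0.3 µM in A549 minus that in H1299. With azacitidine the difference was -2.02 for AQP3 (limma adjusted p = 2.26e-07), read from the brightest of its probe sets. It was -2.19 for CSTA (limma adjusted p = 2.58e-07) and 1.5 for SFN (adjusted p = 9.98e-07). Differences of CLIC3 and LY6D are given without a test, because both passed the filter through A549 arrays only and were at the bottom of the array in H1299. They were -1.70 for CLIC3 with azacitidine and 2.53 for LY6D with decitabine, and the smaller pseudocount gave -3.36 and 3.48.

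In 3 further cases the treated arrays of one line lay above its vehicle arrays and those of the other line lay below theirs, and the difference between the lines was not tested. For AQP3 the change from vehicle in A549 minus that in H1299 was -1.81 with 1 µM azacitidine and -2.48 with 3 µM. Both were read from its brightest probe set. On the other AQP3 probe sets the A549 arrays with these doses lay between the vehicle arrays. In H1299 with 3 µM, the dimmest read 20.8 and 29.5 against 35.1 and 42.0 with vehicle. The next brightest read 102 and 99.8 against 97.3 and 66.9. For CLIC3 the change in A549 minus that in H1299 was 0.24 with 0.3 µM azacitidine. The H1299 signals of CLIC3 behind that value were 0.631 and 1.13 with azacitidine and 3.12 and 1.19 with vehicle, all below the 25th percentile of their arrays.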

How the results depend on the processing

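Counts of members called over the dose steps changed as follows. They include LY6D with decitabine (in A549 and between the lines) and CLIC3 with azacitidine between the lines, which are described above without a test. A filter at the array 75th percentile, under which 3 members were present, gave 2 for azacitidine in A549, 1 for azacitidine in H1299 and 2 for the line difference with azacitidine. For decitabine in A549 the count was 2 under median centring and without the 3 arrays in doubt, and 2 to 3 with 1 array left out, the main count being 4. For decitabine in H1299 it was 0 to 1 with 1 array left out. The line difference with decitabine gave 0 with a pseudocount of 1, 2 with a larger one, 0 with the filter on the mean (which left 3 members) and 2 with all kept probe sets. The squamous genes called between the drugs in A549 were 8 under the 75th percentile filter and under the filter on the mean, where fewer genes were tested, against 14. The count for 3 µM decitabine in A549 was 6 without the 3 arrays in doubt, and 7 to 9 with 1 left out. Relatives called between the drugs were 4 under median centring and 11 with no filter in A549, against 7, and 8 with all kept probe sets in H1299, against 5. The CLIC3 difference between the drugs at 1 µM in H1299 was -0.629 without the first decitabine array and turned to 0.1673 without the second, the main value being -0.23. Median centring moved the share of higher among all genes called over the dose step to 40.8% with azacitidine in A549, against 61.1%, to 48.3% with decitabine in A549, against 63.9%, and to 50.5% with azacitidine in H1299, against 60.8%. Where no cause is shown by the alternative itself, the cause was not tested.

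Of 486 values of the dose steps of single members under an alternative, 468 kept their side of the threshold, 17 lost their call and 1 gained one. No called step turned, and changes of sign in steps without a call were not counted. Of 688 differences between the drugs, 618 moved by less than the spread between replicates, 69 moved further and 1 turned. A turn was counted only for differences larger than that spread.

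Groups share the replicate numbers 1 and 2. Deviations of same-numbered arrays correlated between -0.25 and 0.27 over 21 pairs of groups in A549 (median 0.03), and between -0.08 and 0.16 over 21 in H1299 (median 0.00). Some groups, more of them in A549, thus deviated together, but the numbers show no common pairing and were not used in the main fit. With a replicate block the counts of members called were 4, 4, 2 and 1 for azacitidine and decitabine in A549 and then in H1299, and 4 and 1 for the line differences, as without it. LY6D lay below the array 25th percentile on every array other than A549 with decitabine, and CLIC3 lay below the array median on every H1299 array, which limits the differences that can be read there.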
